A study of Mus musculus with 10 samples.

Results

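The colony-stimulating factors M-CSF, GM-CSF and G-CSF and their receptors were followed through 8 genes in RAW264.7 cells, a mouse macrophage line. The ligand genes were Csf1, Csf2 and Csf3, and the receptor genes were Csf1r, Csf2ra, Csf2rb, Csf2rb2 and Csf3r. They were chosen by gene symbol, with earlier results of these data known. They are 8 of the 43432 Ensembl genes counted, and all 8 passed the filter on low counts. The 5 conditions had 2 libraries each. Cells in DMSO received the solvent at 0.5% without LPS, and all others received LPS at 1 µg/mL to start an inflammatory response. DMSO + LPS had the solvent with LPS, and 3 conditions had **1**, a keto fatty acid isolated from cyanobacteria, at 32, 10 or 3.2 µM with LPS. Solvent or **1** was given 1 h before LPS, and RNA was collected at 12 h. All libraries came from this 1 transformed cell line, and whether the bioreps of a condition were separate cultures is not given in the sources used here, so that p-values measure the spread between these libraries, which may be technical.

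M-CSF is the growth factor on which most macrophages depend, and it acts through the tyrosine kinase CSF1R. GM-CSF and G-CSF raise the output and activity of myeloid cells, and macrophages secrete both during inflammation. Their receptors have no kinase of their own: the GM-CSF receptor pairs the alpha chain CSF2RA with a beta chain, the G-CSF receptor is a pair of CSF3R molecules, and both signal through JAK kinases and STAT factors. Mice carry a close copy of the beta chain gene, Csf2rb2, whose product serves the IL-3 receptor.

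Library totals lay between 45966803 and 58976377 counts. Levels are given as CPM, counts scaled to a common library total after edgeR's TMM method, and differences as log2 fold changes from edgeR's quasi-likelihood test with their standard error (SE). A gene was called when it differed at least 1.5-fold (0.585 on the log2 scale) with a Benjamini-Hochberg adjusted p below 0.05 over the 14172 genes tested. All 8 macrophage markers checked had at least 10 counts in every library, among them Cd68 at 599 to 723 CPM and Adgre1 at 121 to 264 CPM, and the T cell markers summed to at most 0.0699 CPM in any library. The macrophage markers summed to 8220 to 9020 CPM in DMSO and 8750 to 8850 CPM in DMSO + LPS, and with **1** to 8010 to 8180 CPM (3.2 µM), 6840 to 7520 CPM (10 µM) and 6240 to 6570 CPM (32 µM). Lyz2 and Cd14 made up most of this sum, with 7350 to 7520 CPM in DMSO + LPS and 5130 to 5380 CPM with 32 µM, while the other 6 markers summed to 1330 to 1390 CPM and 1110 to 1190 CPM there. This order by dose runs beside the dose comparisons of the members, and its part in them was not tested. In DMSO, Lyz2 and Cd14 summed to 7200 to 7990 CPM and the other 6 markers to 1030 CPM. Over all libraries Lyz2 ran from 2580 to 6840 CPM and Cd14 from 1130 to 3360 CPM, so that a steady sum can hide opposite moves. In these bulk libraries fewer cells of a type and less RNA per cell cannot be told apart. Replicate 2 at 32 µM had 3.98% of its counts in ribosomal RNA features (with Gm42418 and Gm23935), against 0.176% to 0.383% elsewhere.

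**Figure D1:**
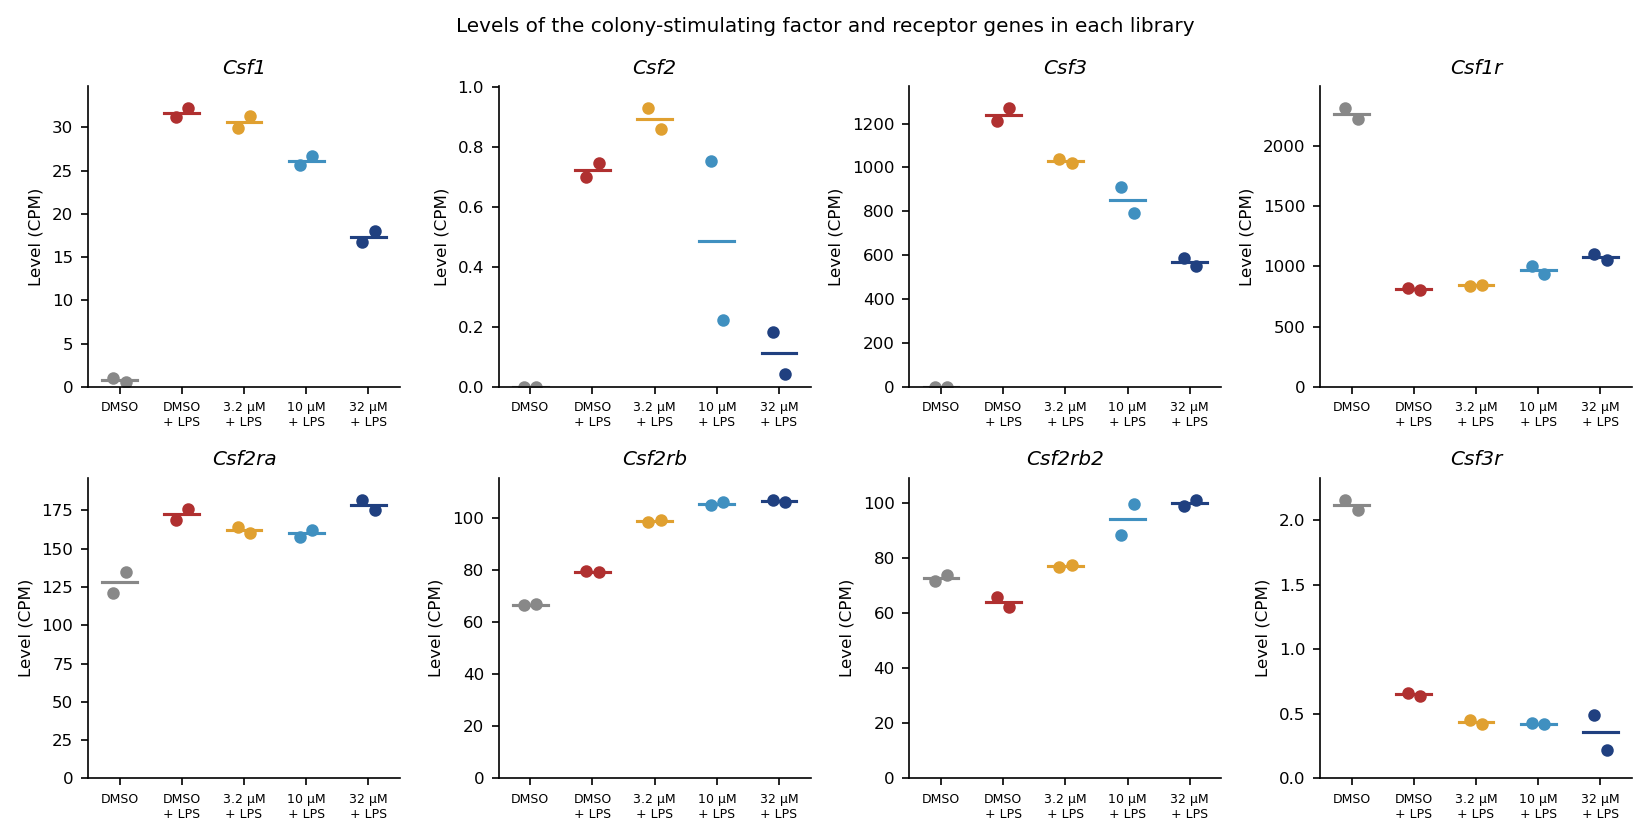
Level in CPM (y axis, from 0, scaled per gene) of each colony-stimulating factor and receptor gene in the 5 conditions (x axis). Points are the 2 libraries of a condition and the bar is their mean. Ligand genes are near 0 in DMSO, while Csf1r and Csf3r are highest there.

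In resting cells the receptors were transcribed and the ligands hardly. In DMSO, Csf1r stood at 393 ± 10.5 CPM per kb of exon (SD, n = 2), a scale that allows genes of different length to be set side by side. Csf2ra followed at 44.5 ± 3.48 CPM per kb (SD, n = 2), then Csf2rb2 at 15.3 ± 0.297 and Csf2rb at 9.16 ± 0.0213 CPM per kb (SD, n = 2). The G-CSF receptor gene Csf3r reached 0.587 ± 0.0158 CPM per kb (SD, n = 2). Every ligand gene lay below these receptors, with Csf1 at 0.148 ± 0.0496 CPM per kb, Csf3 at 0.0303 ± 0.0252 CPM per kb (SD, n = 2) and Csf2 at 0 counts in both libraries. In DMSO + LPS the order had a ligand on top: Csf3 was at 878 ± 28.4, Csf1r at 141 ± 2.10, Csf1 at 6.00 ± 0.129 and Csf2 at 0.902 ± 0.0413 CPM per kb (SD, n = 2). The order of the beta chain genes there depended on the length used, since Csf2rb was at 10.9 and Csf2rb2 at 13.5 CPM per kb of all exons, but at 16.2 and 13.5 per kb of the longest transcript.

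**Figure D2:**
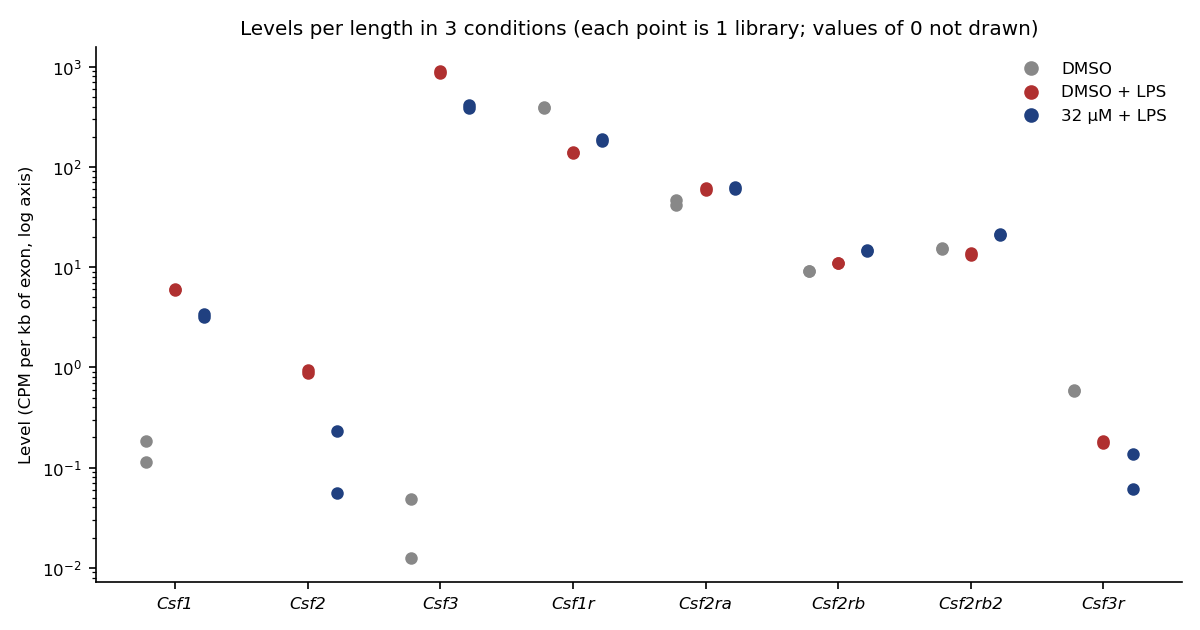
Level per kb of merged exon length (y axis, CPM per kb, log axis) of the 8 genes in DMSO, DMSO + LPS and 32 µM + LPS, each point 1 library. Csf3 passes from the lowest detected level in DMSO to the highest in DMSO + LPS, and Csf2 has no point in DMSO because both libraries had 0 counts.

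LPS raised Csf1 and lowered the receptor genes Csf1r and Csf3r, while Csf2 and Csf3 passed from almost no counts to counts in every library with LPS. Of the 8 genes, 5 were past both thresholds in DMSO + LPS against DMSO, 3 higher and 2 lower, where 28.2% of all genes tested were called. Csf2 and Csf3 entered this comparison through the libraries with LPS alone, so that their place among the 5 is a description, as it is in every comparison with DMSO, and no p is given for them there. The genes Csf2ra, Csf2rb and Csf2rb2 were not called.

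Csf1 (ENSMUSG00000014599, GRCm38 chromosome 3, 107741048 to 107760469, minus strand) encodes M-CSF. It had 57 and 34 counts in DMSO, 0.969 and 0.599 CPM, against 31.2 and 32.2 CPM in DMSO + LPS. Both LPS libraries lay far above both DMSO libraries, and Csf1 rose by 5.33 on the log2 scale (SE 0.16, adjusted p = 7.35e-08), which is 40.1-fold.
With **1** its libraries gave 29.9 and 31.3 CPM (3.2 µM), 25.6 and 26.7 CPM (10 µM) and 16.7 and 18 CPM (32 µM). The libraries at 32 µM stood below all others with LPS, those at 10 µM below those of DMSO + LPS, and those at 3.2 µM overlapped them. Against DMSO + LPS, Csf1 fell at 32 µM to 54.9% of its level (log2 fold change −0.87, SE 0.12, adjusted p = 0.00282). Its log2 fold changes of −0.28 at 10 µM (SE 0.12, adjusted p = 0.407) and −0.05 at 3.2 µM (SE 0.12, adjusted p = 0.999) did not pass, the latter with a 95% interval of −0.32 to 0.22. With the highest dose Csf1 was still 22-fold above DMSO (log2 fold change 4.46, adjusted p = 2.30e-07). At the 1.5-fold cutoff the call at 32 µM held under each of the 20 alternatives run, with log2 fold changes from −0.92 to −0.81, and it was lost at a 2-fold cutoff.

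Upstream of its RefSeq start, Csf1 carries 1 match to the consensus of NF-κB, the transcription factor through which LPS acts on many cytokine genes. The 250 bases before the start (GRCm38.p6, chr3:107760470-107760719, minus strand) are shown because Csf1 was called both with LPS and at 32 µM and its promoter was in the RefSeq table, where Csf3 was missing. The match, in capitals, lies 154 to 145 bases before the start and reads on the opposite strand.
Csf1 promoter: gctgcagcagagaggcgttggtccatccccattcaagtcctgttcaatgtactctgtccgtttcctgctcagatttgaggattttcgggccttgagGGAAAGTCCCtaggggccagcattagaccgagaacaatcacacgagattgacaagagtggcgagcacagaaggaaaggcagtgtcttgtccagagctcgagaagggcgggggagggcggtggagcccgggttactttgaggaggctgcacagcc
Both strands were searched, and 7.25% of 32851 promoters of this length held such a match, so that it is a description of these letters only. Of the other members, 4 had a promoter in the table. Csf3r held a match to the same consensus 129 to 120 bases before its RefSeq start, which lies 109 bases inside the gene as GENCODE has it. The windows of Csf2ra and Csf2rb2 held none. The window of Csf2 held none either, but RefSeq's start lies 232 bases upstream of the GENCODE start given for Csf2 here, and the bases between were not searched.

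Csf3 (ENSMUSG00000038067, chromosome 11, 98701263 to 98703629, plus strand) encodes G-CSF, the main growth factor of neutrophils. It had 4 and 1 counts in DMSO and 69433 and 59610 in DMSO + LPS, that is 0.068 and 0.0176 CPM against 1210 and 1270 CPM. The ratio of scaled counts was 28600, with a 95% interval of 12300 to 88100 that covers counting error only. The fitted log2 fold change of 14.73 turned on these few counts and was 15.91 without replicate 1 of DMSO and 14.09 without replicate 2.
With **1** its libraries gave 1040 and 1020 CPM (3.2 µM), 912 and 791 CPM (10 µM) and 588 and 551 CPM (32 µM), so that the higher dose always had the lower level. No library of one dose overlapped those of another or of DMSO + LPS. Csf3 fell at 32 µM to 45.9% of its level in DMSO + LPS (log2 fold change −1.12, SE 0.10, adjusted p = 2.71e-04), a call kept under each of the 20 alternatives (−1.17 to −1.08) and at a 2-fold cutoff. At 10 µM its log2 fold change was −0.54 (SE 0.10, adjusted p = 0.0326), under the 1.5-fold cutoff, and without replicate 1 at 10 µM it passed with −0.65 (adjusted p = 0.0357). At 3.2 µM it was −0.27 (SE 0.10, adjusted p = 0.999). Even at 32 µM Csf3 remained the ligand or receptor gene with the highest level per length, 403 ± 18.2 CPM per kb (SD, n = 2) against 185 ± 5.92 for Csf1r.

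Csf2 (ENSMUSG00000018916, chromosome 11, 54247271 to 54249667, minus strand) encodes GM-CSF and was scarce in these libraries. It had 0 and 0 counts in DMSO and 40 and 35 counts in DMSO + LPS. With **1** it had 43 and 43 counts (3.2 µM), 35 and 10 counts (10 µM) and 9 and 2 counts (32 µM). The libraries at 32 µM lay below all others with LPS, whereas at 10 µM replicate 1 lay with DMSO + LPS and replicate 2, with 10 counts, near the 9 of replicate 1 at 32 µM. A score of short transcripts per library, described under processing, was 0.289 and −0.12 at 10 µM and 0.136 and −0.265 at 32 µM. With this score in the fit, the log2 fold change of Csf2 against DMSO + LPS was −1.08 at 10 µM and −2.54 at 32 µM. The part of the score in the counts of Csf2, a transcript of 800 bases, was not tested. Against a floor of 3 counts over the DMSO libraries (0.0260 CPM), Csf2 was at least 27.7-fold higher in DMSO + LPS.
Both libraries at 32 µM had fewer than the filter's minimum of 10 counts. Csf2 thus entered the comparison with DMSO + LPS through other libraries, so that its values are a description and no p is given. The log2 fold change was −2.62 with an SE of 0.74 (95% interval −4.38 to −0.85), and Csf2 was not among the genes called. Without replicate 1 at 32 µM the value was −3.95 and without replicate 2 it was −1.96. These were also the ends of the range over the 19 alternatives run, and whether Csf2 passed both thresholds depended on the setting. In counts, DMSO + LPS held 6.16 times the 32 µM level (95% interval 3.25 to 12.9, counting error only). At 10 µM the log2 fold change was −0.56 (SE 0.64, adjusted p = 0.869) and, without replicate 2, it was 0.04 (adjusted p = 0.977), against −1.69 (adjusted p = 0.362) without replicate 1. The antisense gene Gm12223, which shares 96 exonic bases with Csf2, had 0 counts in every library.

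**Figure D3:**
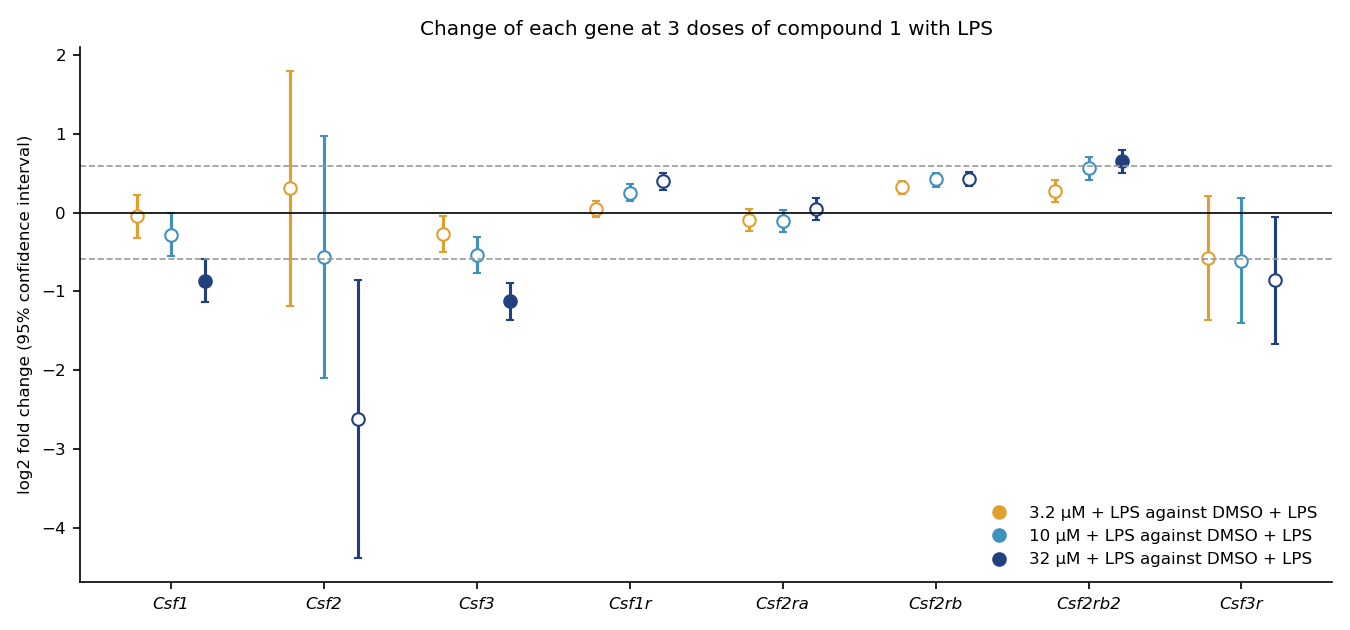
Log2 fold change against DMSO + LPS (y axis) of the 8 genes (x axis) at 3 doses of **1**, with 95% confidence intervals derived from edgeR's F statistic. Filled points were called and dashed lines mark 1.5-fold. The filled points are Csf1, Csf3 and Csf2rb2 at 32 µM, while the intervals of Csf2 and Csf3r are the widest. The point for Csf2 at 32 µM is a description. All doses share the DMSO + LPS libraries.

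Among the receptors, Csf1r (ENSMUSG00000024621, chromosome 18, plus strand), the M-CSF receptor gene, was the most abundant in every condition. It stood at 2310 and 2220 CPM in DMSO and at 822 and 805 CPM in DMSO + LPS, and the conditions did not overlap. LPS lowered it to 35.9% (log2 fold change −1.48, SE 0.05, adjusted p = 1.05e-07).
With **1** its libraries gave 839 and 842 CPM (3.2 µM), 1000 and 938 CPM (10 µM) and 1100 and 1050 CPM (32 µM). The libraries at each dose stood above those of DMSO + LPS and below those of DMSO. Its log2 fold change against DMSO + LPS was 0.40 at 32 µM (SE 0.05, adjusted p = 0.00118) and 0.25 at 10 µM (SE 0.05, adjusted p = 0.0316), both under the 1.5-fold cutoff, and 0.05 at 3.2 µM (SE 0.05, adjusted p = 0.999). At 32 µM it was still called lower than in DMSO, at 47.2% of that level (log2 fold change −1.08, adjusted p = 6.90e-07). Hmgxb3, on the opposite strand, shares 873 exonic bases with Csf1r. It was at 39.4 to 41.1 CPM in DMSO and 77.7 to 78.5 CPM in DMSO + LPS, and rose where Csf1r fell (log2 fold change 0.96, adjusted p = 2.89e-06). Its log2 fold change at 32 µM was −0.07 (adjusted p = 0.539). The strand setting of the counting is not given in the sources used here, so reads in the shared bases cannot be assigned. Markers of osteoclasts, cells that form under M-CSF, summed to 127 to 132 CPM in DMSO, 212 to 219 CPM in DMSO + LPS, 223 to 224 CPM with 3.2 µM, 219 to 220 CPM with 10 µM and 180 to 182 CPM with 32 µM; 5 of the 6 had at least 10 counts in every library, with at most 1 count of Calcr in any library. Their part in the levels of Csf1r was not tested.

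Csf2ra (ENSMUSG00000059326, chromosome 19, 61223957 to 61228429, minus strand) encodes the ligand-binding alpha chain of the GM-CSF receptor. Its level was 121 and 135 CPM in DMSO and 169 and 176 CPM in DMSO + LPS. With **1** it was 164 and 160 CPM (3.2 µM), 158 and 162 CPM (10 µM) and 182 and 175 CPM (32 µM). DMSO was lowest and the libraries with LPS lay close together. Its log2 fold change with LPS was 0.43 (SE 0.06, adjusted p = 4.67e-04), under the cutoff. At 32 µM the log2 fold change against DMSO + LPS was 0.05 (adjusted p = 0.761), with a 95% interval of −0.09 to 0.19, which leaves out a 1.5-fold change in either direction.

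The beta chain genes lie on chromosome 15 on opposite strands: Csf2rb (ENSMUSG00000071713, 78325752 to 78353847, plus strand) encodes the chain shared by the receptors of GM-CSF, IL-3 and IL-5, and Csf2rb2 (ENSMUSG00000071714, 78282507 to 78305721, minus strand) its copy. Their coding sequences, 2688 and 2634 bases long, were identical at 95.2% of the aligned positions without gaps. The stretch of 90 coding bases with the most differences is shown, with the 16 differing bases in capitals, because reads from such places tell the genes apart. It lies at chr15:78338897-78338986 on the plus strand for Csf2rb and at chr15:78294345-78294434 on the minus strand for Csf2rb2 (GRCm38).
Csf2rb: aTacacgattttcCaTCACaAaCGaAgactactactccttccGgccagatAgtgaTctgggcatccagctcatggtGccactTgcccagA
Csf2rb2: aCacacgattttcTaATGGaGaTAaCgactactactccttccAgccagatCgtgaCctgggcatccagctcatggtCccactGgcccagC
In other stretches a single read cannot tell the copies apart. The longest identical run was 242 bases, and 6.6% of the 150-base windows of Csf2rb2 occurred unchanged in Csf2rb. How the authors' counting treated such reads is not given in the sources used here, so the split between the genes is uncertain.

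Counted separately, Csf2rb was at 66.6 and 66.8 CPM in DMSO and 79.5 and 79.3 CPM in DMSO + LPS. With **1** it was at 98.6 and 99.2 CPM (3.2 µM), 105 and 106 CPM (10 µM) and 107 and 106 CPM (32 µM). It was higher in every library with **1** than in any without, and the upper doses lay side by side. Its log2 fold change against DMSO + LPS was 0.42 at 32 µM (SE 0.04, adjusted p = 2.17e-04) and 0.42 at 10 µM (SE 0.04, adjusted p = 0.00178), both under the 1.5-fold cutoff. At 3.2 µM it was 0.32 (SE 0.04, 95% interval 0.23 to 0.40, unadjusted p = 2.98e-05), which did not pass after adjustment (adjusted p = 0.141, range over the alternatives 8.05e-06 to 1.00). The difference between 32 and 10 µM was 0.01 on the log2 scale (95% interval −0.08 to 0.09). Against DMSO the 32 µM libraries were called higher (log2 fold change 0.68, SE 0.04, adjusted p = 2.33e-06), although not with scaling by library size alone (0.47) or when summed with Csf2rb2 (0.57).
Csf2rb2 was at 71.7 and 73.7 CPM in DMSO and 65.6 and 62 CPM in DMSO + LPS. With **1** it was at 76.8 and 77.2 CPM (3.2 µM), 88.4 and 99.5 CPM (10 µM) and 98.9 and 101 CPM (32 µM). DMSO + LPS was lowest, and the libraries at 10 and 32 µM were the highest and overlapped. Csf2rb2 rose at 32 µM by 0.65 on the log2 scale (SE 0.06, adjusted p = 3.93e-04), which is 1.57-fold over DMSO + LPS. At 10 µM its log2 fold change was 0.56 (SE 0.06, adjusted p = 0.00408), just under the cutoff, and leaving out replicate 1 of DMSO + LPS (0.60, with adjusted p = 0.0428) or of 10 µM (0.64, with adjusted p = 0.00376) made it pass. At 3.2 µM it was 0.27 (SE 0.06, adjusted p = 0.722).

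Counted as 1 feature, Csf2rb and Csf2rb2 gave 138 and 140 CPM in DMSO and 145 and 141 CPM in DMSO + LPS. With **1** they gave 175 and 176 CPM (3.2 µM), 194 and 206 CPM (10 µM) and 206 and 207 CPM (32 µM). Every library with **1** lay above every library without it. The sum differed by 0.53 on the log2 scale at 32 µM (adjusted p = 1.85e-04), under the 1.5-fold cutoff, so the call of Csf2rb2 rests on the counts being kept apart. With LPS alone the sum moved by 0.04 (adjusted p = 0.500), where Csf2rb had 0.25 (adjusted p = 6.28e-04) and Csf2rb2 −0.19 (adjusted p = 0.0352). The share of Csf2rb2 in both genes' counts was 51.9% and 52.5% in DMSO, against 45.2% and 43.9% in DMSO + LPS, and with 32 µM it was 48% and 48.9%.

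**Figure D4:**
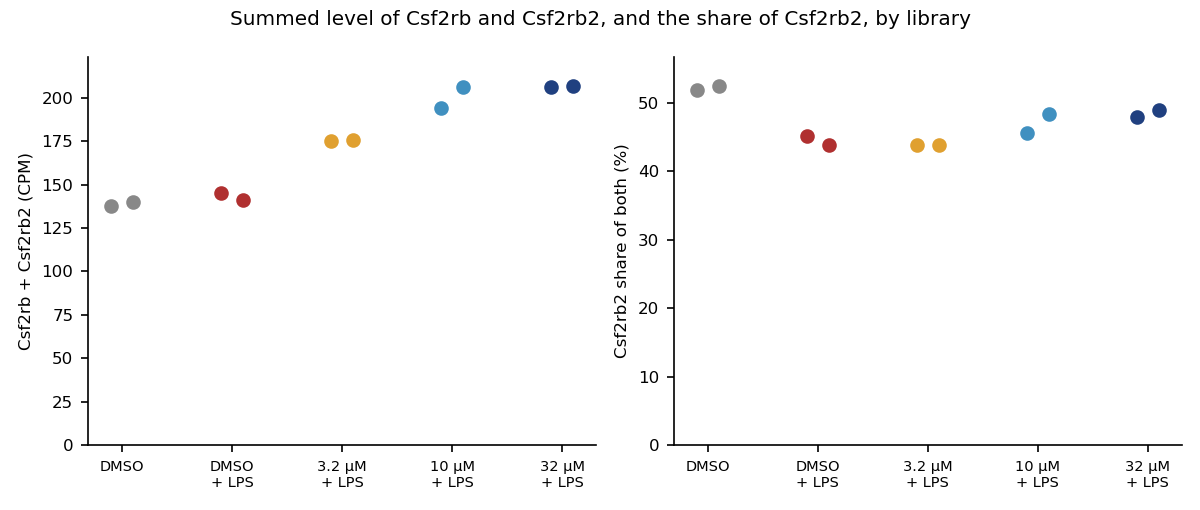
Left, summed level of Csf2rb and Csf2rb2 (y axis, CPM); right, share of Csf2rb2 in the counts of both (y axis, %), in the 5 conditions (x axis), each point 1 library. The sum lies between 138 and 145 CPM without **1** and between 175 and 207 CPM with it, and the share is highest in DMSO.

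Csf3r (ENSMUSG00000028859, chromosome 4, 126024550 to 126044440, plus strand), the G-CSF receptor gene, is known mainly from neutrophils and was sparse here. It had 127 and 118 counts in DMSO and 38 and 30 counts in DMSO + LPS. With **1** it had 21 and 21 counts (3.2 µM), 20 and 19 counts (10 µM) and 24 and 10 counts (32 µM). All libraries with LPS were below both DMSO libraries, and those with **1** below those of DMSO + LPS. LPS lowered Csf3r to 30.8% of its level (log2 fold change −1.70, SE 0.32, adjusted p = 0.00267). The 32 µM libraries had a log2 fold change against DMSO + LPS of −0.86 (SE 0.35, adjusted p = 0.191), and it was not called. Without replicate 1 at that dose the value was −1.55 (adjusted p = 0.0315), and without replicate 2 it was −0.41 (adjusted p = 0.633). The 8 neutrophil markers summed to 0.599 to 1.12 CPM in DMSO, 6.6 to 6.76 CPM in DMSO + LPS and 1.79 to 2.70 CPM with 32 µM. The sums were 6.57 to 7.46 CPM with 3.2 µM, and 8.27 and 3.03 CPM in replicates 1 and 2 with 10 µM. S100a8 had 33 to 369 counts in a library, and Ltf had at most 63, Ly6g 39, S100a9 16, Camp 13, Mpo 5, Elane 2 and Retnlg 0. Their part in the level of Csf3r was not tested.

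Across the doses, the comparison with DMSO + LPS called 3 of the 8 genes at 32 µM, Csf2rb2 higher and Csf1 and Csf3 lower, where 4.18% of all genes tested were called. At 10 µM edgeR's quasi-likelihood test called 0 of the 8, with 0.861% of all genes called, while 5 had an unadjusted p below 0.05. At 3.2 µM this test called 0 of the 8, with 0% of all genes called. Its unadjusted p was below 0.05 for 3 of the 8 and for 600 of all genes tested. DESeq2 on all 10 libraries, edgeR's likelihood ratio test and edgeR on the 4 libraries compared also called 0 of the 8 at both of these doses. Over all genes they called 177, 182 and 41 at 10 µM and 8, 3 and 66 at 3.2 µM, in that order. Without replicate 1 at 10 µM, Csf3 and Csf2rb2 passed at that dose, as given above. This library had the highest sums of neutrophil markers (8.27 CPM, with 4 of 8 at 10 counts or more) and of fibroblast markers (4.43 CPM, with 3 of 4), where replicate 2 had 3.03 and 0.266 CPM, and their part in the results at 10 µM was not tested.
Between neighboring doses, Csf1 was called lower at 32 than at 10 µM (log2 fold change −0.59, SE 0.12, adjusted p = 0.0484), 1 of the 8 genes where 1.32% of all genes were called. This call sat at both thresholds. It was lost with DESeq2's size factors (adjusted p = 0.0528) and when any library of DMSO + LPS, 3.2, 10 or 32 µM was left out (adjusted p from 0.100 to 0.234). For Csf3 the same difference was −0.58 (SE 0.10, adjusted p = 0.0225), just under the fold cutoff. Between 10 and 3.2 µM, edgeR's quasi-likelihood test called 0 of the 8, against 0.254% of all genes. Its unadjusted p was below 0.05 for 4 of the 8 and for 1187 of all genes tested. DESeq2 and the likelihood ratio test called 0 of the 8 as well, with 54 and 61 called over all genes.
At 32 µM with LPS against DMSO without it, 6 of the 8 were past both thresholds, Csf1, Csf2, Csf3 and Csf2rb higher and Csf1r and Csf3r lower, where 27.1% of all genes were called. For Csf2, with 9 and 2 counts against 0 and 0, the level was at least 4.50-fold higher, and its place among the 6, like that of Csf3, is a description. The fitted log2 fold change of Csf2, 5.57, was 4.23 without replicate 1 at 32 µM and 6.24 without replicate 2. Csf3r was at 17.0% of its DMSO level (log2 fold change −2.56, SE 0.34, adjusted p = 3.89e-04), with a log2 fold change of −3.25 without replicate 1 at 32 µM and −2.11 without replicate 2.

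Genes around these receptors were taken from 4 lists written from general knowledge, of 43 genes, of which 36 were tested. With LPS 15 were called, 12 higher and 3 lower, with a median log2 fold change of 0.18 against 0.003 over all genes tested. At 32 µM 2 were called lower and 0 higher, with a median of −0.04 against 0.008. At 10 and 3.2 µM edgeR's quasi-likelihood test called 0, with medians of −0.04 and −0.01. Its unadjusted p was below 0.05 for 10 and 2 of the 36, and for 1709 and 600 of the 14172 genes tested. DESeq2 and the likelihood ratio test called 0 of the 36 too. The 28.2% (LPS) and 4.18% (32 µM) given above are the background for the counts of called genes.

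With LPS, 14.6% of all genes tested were called higher and 13.6% lower. The JAK-STAT list holds the kinases, STAT factors and feedback inhibitors of the GM-CSF and G-CSF receptors. It had 7 of 12 genes past both thresholds and higher with LPS and 0 lower (median 0.97). Of these, 4 encode inhibitors of cytokine receptor signaling. Socs3, the inhibitor that acts on the G-CSF receptor, was at 8.57 and 9.02 CPM in DMSO and 922 and 959 CPM in DMSO + LPS, and rose by 6.74 on the log2 scale (SE 0.05, adjusted p = 1.34e-10). Socs1 rose by 2.84 (adjusted p = 4.45e-07). Socs2 had 4 and 10 counts in DMSO and 62 and 63 in DMSO + LPS. Cish, a target gene of STAT5, had 0 counts in both DMSO libraries and 117 and 114 in DMSO + LPS. Both genes entered this comparison through the libraries with LPS alone, so that their place among the 7 and in the median is a description. The kinase genes Jak2, which serves the GM-CSF receptor, and Tyk2 rose by 1.04 (adjusted p = 2.43e-05) and 0.90 (adjusted p = 8.94e-06), and Pim1, a kinase gene induced by STAT5, by 3.66 (adjusted p = 8.85e-08).
At 32 µM 2 of the 12 were called lower than in DMSO + LPS and 0 higher (median −0.26), against 2.91% and 1.27% of all genes tested. Cish had 53 and 40 counts there, after 98 and 94 counts (3.2 µM) and 73 and 55 counts (10 µM), and at 32 µM it fell by 1.18 on the log2 scale (SE 0.23, adjusted p = 0.0207). Socs2 had 62 and 63 counts in DMSO + LPS and 15 in each library at 32 µM, and fell by 1.92 (SE 0.42, adjusted p = 0.0251). Both calls were lost without replicate 1 or replicate 2 of DMSO + LPS or without replicate 2 at 32 µM, which left 0 genes of the lists called. Without replicate 1 at 32 µM 1 gene was called, Pim1, and without replicate 2 at 3.2 µM 1, Socs2. The genes of STAT5 itself were near 0 at 32 µM, with log2 fold changes of −0.02 for Stat5a (95% interval −0.19 to 0.16) and 0.03 for Stat5b (95% interval −0.10 to 0.17).

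Of 15 genes of CSF1R signaling, 4 were called with LPS (median 0.05). This is near the share of 28.2% over all genes tested, so that their values are a description. Called lower was 1 (13.6% over all genes) and called higher were 3 (14.6%). These were the Src family kinase genes Src, at 22.7 and 20.9 CPM in DMSO and 183 and 187 CPM in DMSO + LPS (log2 fold change 3.09, SE 0.05, adjusted p = 4.81e-09) and Lyn (0.73, SE 0.05, adjusted p = 8.75e-06), and the adaptor gene Gab2 (0.77, SE 0.09, adjusted p = 2.25e-04). Inpp5d, which encodes the inositol phosphatase SHIP1, fell by 0.80 (SE 0.07, adjusted p = 2.60e-05). At 32 µM edgeR's quasi-likelihood test called 0 of the 15, and DESeq2, with 585 called over all genes, called 0. EdgeR's unadjusted p was below 0.05 for 5 of the 15 and for 3151 of the 14172 genes tested. Under the fold cutoff, Lyn had −0.45 (adjusted p = 0.00103), Pik3cd −0.30 (adjusted p = 0.0039), Shc1 0.19 (adjusted p = 0.0366) and Plcg2 0.17 (adjusted p = 0.0403), and Src, with 171 and 168 CPM, had −0.13 (adjusted p = 0.158).
Of 7 transcription factors that act on the Csf1r gene, Cebpb and Ets2 were called higher with LPS and Cebpa and Fli1 lower (median −0.14). Over all genes tested 28.2% were called. Cebpa was at 89.9 and 92.5 CPM in DMSO and 57.1 and 61.8 CPM in DMSO + LPS, a fall of 0.62 on the log2 scale (SE 0.05, adjusted p = 2.83e-05). This lay near the cutoff of 0.585, and Cebpa did not pass without replicate 1 of DMSO + LPS. Fli1 fell by 0.96 (SE 0.12, adjusted p = 2.81e-04). Cebpb rose by 2.21 (SE 0.26, adjusted p = 1.77e-04) and Ets2 by 1.46 (SE 0.06, adjusted p = 3.98e-07). Spi1, which encodes PU.1, had 0.58 (adjusted p = 1.37e-04), just under the cutoff in the main fit. It was called with DESeq2's size factors, DESeq2 on all 10 libraries and edgeR on the 4 libraries compared. At 32 µM edgeR's unadjusted p was below 0.05 for 5 of the 7 and for 3151 of all genes tested. EdgeR's test and DESeq2 called 0 of the 7, with log2 fold changes below the cutoff in both directions. These were 0.33 for Cebpa (adjusted p = 0.00586), 0.36 for Runx1 (adjusted p = 0.0111), −0.28 for Irf8 (adjusted p = 0.0258) and −0.23 for Ets2 (adjusted p = 0.0445), with 0.40 for Fli1 (adjusted p = 0.0844).

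**Figure D5:**
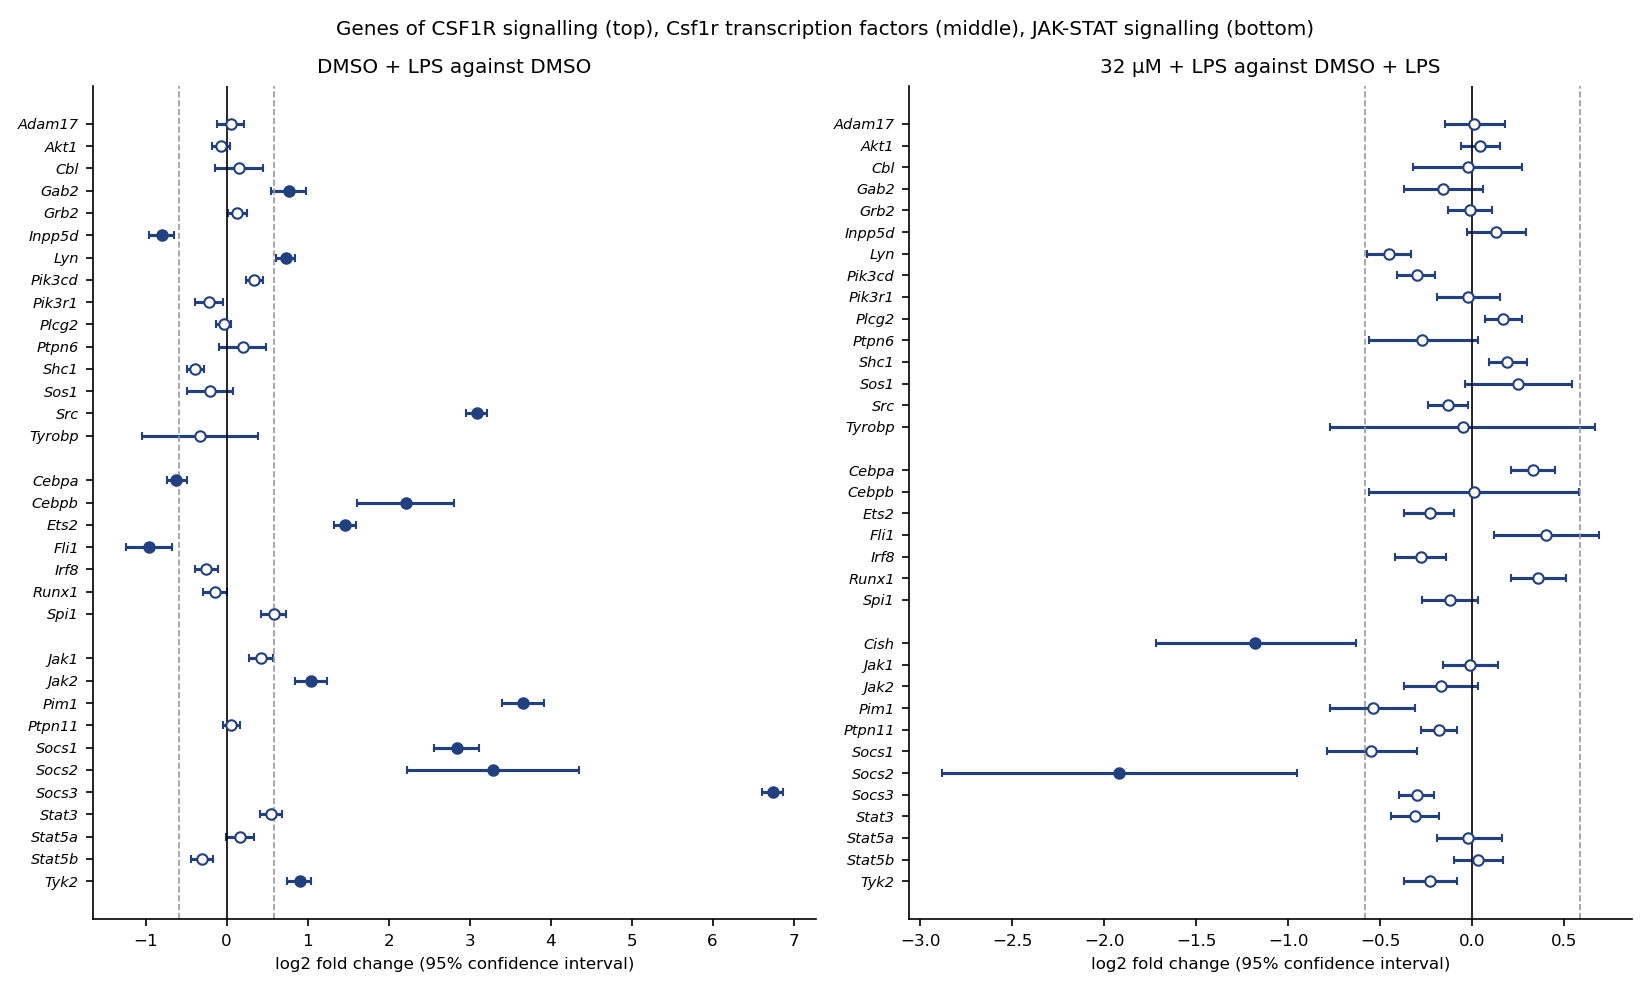
Log2 fold change (x axis, with 95% confidence intervals derived from edgeR's F statistic) of each tested gene of 3 lists (y axis), with LPS on the left and at 32 µM on the right. Filled points were called and dashed lines mark 1.5-fold. The left panel leaves out Cish, which had 0 counts in DMSO, and its point for Socs2 is a description; on the right only Cish and Socs2 are filled, and both panels share the DMSO + LPS libraries.

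Of 9 related ligands and receptors, 2 were tested, and edgeR's quasi-likelihood test and DESeq2 called 0 of these with LPS or at 32 µM. EdgeR's unadjusted p was below 0.05 for 0 of the 2, and for 7964 (LPS) and 3151 (32 µM) of the 14172 genes tested. Kitl, the gene of stem cell factor, had 1085 to 1709 counts in a library and a log2 fold change of −0.17 with LPS (adjusted p = 0.268). Il34, whose product is the other ligand of CSF1R, had 3 to 21 counts and a log2 fold change of 1.22 at 32 µM (SE 0.66, adjusted p = 0.348). Il3 and Il5ra had 0 counts in every library, Il5 at most 1, Flt3 at most 4, Il3ra at most 8 and Kit at most 13. In Il3ra and Il5ra, the alpha chains that pair with the beta chains, this depth cannot show a difference.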

How the data were processed

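The data were RNA-seq of RAW264.7 macrophages, 2 libraries for each of 5 conditions. Per the study's methods, the authors made stranded poly(A) libraries and sequenced them with 2 × 150 cycles on 1 lane. The authors deposited 1 table of raw, unnormalized counts, with Ensembl genes in rows and libraries in columns. The submitters' processing notes list Trimmomatic, FastQC, STAR, DESeq2 and the build mm10; versions, the counting tool, the annotation and the strand setting are not given in the sources used here. Multi-mapped reads and reads of overlapping genes could therefore shift Csf2rb, Csf2rb2, Csf1r and Csf2.

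GENCODE M21 (GRCm38) gave symbols and positions, and 970 identifiers had no symbol. Promoters were those of RefSeq (GRCm38.p6), where 5 of the 8 members matched by symbol. Coding sequences were aligned with Biopython 1.88. Low genes were removed with filterByExpr (minimum count 10), and the rest scaled by TMM and tested by quasi-likelihood F tests in edgeR 4.0.16 (R 4.3.3) in 1 fit of all 10 libraries with 5 residual degrees of freedom. EdgeR's common coefficient of variation came to 0.128. An exact permutation test of 2 against 2 libraries cannot go below p = 0.333, so the tests rest on the spread pooled across conditions and genes. The spread between replicates differed by condition. A chi-square of their counts, averaged per gene, was 3.25 at 3.2 µM, 5.85 in DMSO + LPS, 36.7 in DMSO, 45.7 at 10 µM and 174 at 32 µM. The steps were tested on simulated data.

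The alternatives tried were scaling by DESeq2's size factors or by library size alone, testing without the filter or above a mean of 5 CPM, a replicate block, DESeq2 1.42.0 on all 10 libraries, edgeR on the 4 libraries compared, a likelihood ratio test, a 2-fold cutoff, a short-transcript score per library (the median log2 CPM relative to the other libraries over 273 genes with transcripts under 1000 nt), Csf2rb and Csf2rb2 summed, and leaving out each library, which assumes that a lone library varies like those of other conditions. A block with crossed numbers was chosen after seeing the data. From the lists, 1 gene was removed and is not reported here. The members, lists and tests were chosen with earlier results of these data known. Genes named are the members, every gene of the lists called with LPS or at 32 µM (15 genes), other list genes and marker genes chosen after their values were seen, and the 3 genes most like each member with a mean of at least 5 CPM.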

Additional observations from a re-analysis of the deposited data

How the results depend on the processing

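Counts of called members kept within 1.5 times except as follows. A filter at a mean of 5 CPM removed Csf2 and Csf3r and left 3 members called with LPS, with 2641 called over all genes. A 2-fold cutoff left 1 member called at 32 µM, 0 between 32 and 10 µM and 9 pathway genes with LPS. Over all genes, those called between 32 and 10 µM were 187 in the main fit, 186 with DESeq2's size factors and 221 with DESeq2. They were 5 with edgeR on the 4 libraries compared, 188 with library size alone and 163 with the 5 CPM filter. Between 32 and 10 µM, 0 members were called with DESeq2's size factors, DESeq2 on all 10 libraries or edgeR on the 4 libraries compared, and 2 (Csf1 and Csf3) with library size alone or the 5 CPM filter; leaving out 1 library gave 0 to 1. At 10 µM, leaving out 1 library gave 0 to 2 members called. In the pathway lists at 32 µM, the 5 CPM filter, which removes Cish and Socs2, gave 0, and leaving out 1 library gave 0 to 2; at 10 µM the short-transcript score gave 1 (Cish).

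Scaling by library size alone moved the median log2 fold change of all genes with LPS from 0.003 to −0.20. In the pathway lists with LPS it left Lyn and Gab2 uncalled and called Shc1 lower. Signs turned in 7 cases, each a value that was not called. Csf2 at 10 µM ran from −1.69 to 0.04 as 1 library was left out, turning without replicate 2 at that dose, and was −0.29 at 3.2 µM with the short-transcript score. Csf2rb2 turned to 0.04 with LPS when summed with Csf2rb. Csf2ra turned to 0.00 between 10 and 3.2 µM with library size alone. Csf3r ran from −0.93 to 0.21 between 32 and 10 µM, turning without replicate 2 at 32 µM, and from −0.09 to 0.02 between 10 and 3.2 µM, turning without replicate 1 at 3.2 µM and, at 0.01, with the short-transcript score. The causes were not tested, apart from the filter's own removal of genes.

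Libraries of the same replicate number deviated together in the 6 pairs of conditions among DMSO, 3.2, 10 and 32 µM (correlations of their deviations 0.30 to 0.83) and in opposite directions in the 4 pairs with DMSO + LPS (−0.42 to −0.17), so the numbers were not taken to pair all conditions. With the replicate block, 5 members were called with LPS, 4 at 32 µM (Csf2 added, as a description), 0 at 10 and 3.2 µM and 6 at 32 µM against DMSO. The pathway lists had 15, 2, 0 and 0 genes called with LPS and at 32, 10 and 3.2 µM. Over all genes the block called 4097, 616, 174 and 0 in these comparisons, where the main fit called 3995, 592, 122 and 0. At 32 µM against DMSO it called 3910, where the main fit called 3847. With the numbers of DMSO + LPS crossed, 5 members were called with LPS and 4 at 32 µM (Csf2 again as a description). Over all genes this setting called 4180 and 655. Csf2 and Csf3r had at most 43 and 127 counts in a library, and the part of depth in their spread was not tested.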

Other observations

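Over the 10 libraries, the genes most like each abundant member were named by the Pearson correlation of log2 CPM among 9561 genes. These r values are descriptions, since the libraries fall into 5 conditions and share the step from DMSO to LPS. For Csf1 they were Nos2 (r = 0.9991), the inducible nitric oxide synthase gene, Il13ra2 (r = 0.9989) and Scin (r = 0.998). Nos2 was at 0.017 CPM in DMSO, 206 in DMSO + LPS, 147 at 3.2 µM, 111 at 10 µM and 45.2 at 32 µM. For Csf3 they were Tnfrsf1b (r = 0.9997), a TNF receptor gene at 61.7 CPM in DMSO, 2080 in DMSO + LPS and 1520 at 32 µM, Mmp13 (r = 0.9993) and Zc3h12a (r = 0.9992), whose product degrades cytokine mRNA.

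For Csf1r they were Arhgef39 (r = 0.9981), the mitotic kinase gene Aurka (r = 0.9965) and the creatine kinase gene Ckb (r = 0.9963). Aurka was at 88.1 CPM in DMSO, 36.8 in DMSO + LPS, 38.3 at 3.2 µM, 43.2 at 10 µM and 46.9 at 32 µM. For Csf2ra they were D16Ertd472e (r = 0.9734), Acvr2a (r = 0.9729) and Fkbpl (r = 0.971), for Csf2rb Sept9 (r = 0.988), Eepd1 (r = 0.9833) and Myo1c (r = 0.9719), and for Csf2rb2 Champ1 (r = 0.9689), Tmeff1 (r = 0.9633) and Zfp592 (r = 0.9541).

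Among the marker genes, fibroblast markers reached a sum of 4.43 CPM in replicate 1 at 10 µM (Col1a2 with 86, Dcn with 69 and Col1a1 with 43 counts) against 0.266 CPM in replicate 2, and at most 0.798 CPM in the libraries of the other conditions. Markers of dendritic cells, which GM-CSF helps to form, summed to 2.06 to 2.10 CPM in DMSO and 7.14 to 8.40 CPM in the libraries with LPS, with Xcr1 at 9 to 318 counts (0.153 to 6.49 CPM), Zbtb46 at 68 to 110 counts, and Cd209a, Clec9a and Ccr7 at no more than 2, 3 and 3 counts.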
